A study of Mus musculus with 5 samples.

Results

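The respiratory chain of the inner mitochondrial membrane was examined through its nuclear-encoded genes in mouse mast cells that had been cultured from bone marrow. The genes were chosen by a rule on names, with earlier results of these data known. They were all rows of the authors' deposited table whose symbol began with Nduf, Uqcr or Atp5, or with Cox and a single digit from 4 to 8, together with Sdha to Sdhd, Cyc1 and Cycs, leaving out names with -ps. This gave 93 of 25549 gene rows, spread over 19 chromosomes. Mast cells of the genotype Cpa3-Cre;miR-9∆fl/∆fl, called the miR-9 line here (3 samples), were set against Cpa3-Cre control cells (2 samples). Both groups were C57BL/6 and both carried Cre under the control of the promoter of Cpa3, a mast cell carboxypeptidase gene. The labels do not state what recombination of the miR-9∆fl allele does to miR-9, and the animals' age and the number of mice or cultures behind the samples are not stated there. No sample with the miR-9∆fl allele and without Cre was analysed here. Cells were cultured for 6 to 8 weeks with 50 ng/mL interleukin-3, and total RNA depleted of ribosomal RNA was sequenced in strand-specific libraries as paired reads of 50 bases, with a stated depth near 70000000 per sample.

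The respiratory chain passes electrons from food-derived carriers to oxygen and stores the energy as a proton gradient that drives ATP synthesis. Complex I takes electrons from NADH and complex II from succinate, complex III hands them to the small carrier cytochrome c, complex IV passes them to oxygen, and complex V is the ATP synthase. Most subunits are encoded in the nucleus and imported, while a small set of core membrane subunits of complexes I, III, IV and V is encoded by the mitochondrial genome. Nuclear respiratory genes are known for shared promoter elements bound by NRF1, by the ETS factor GABP and by YY1. In mast cells, mitochondrial respiration is known to supply energy for degranulation and cytokine release.

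All expression results are the authors' deposited comparison. Its log2 fold change is the miR-9 line over Cpa3-Cre, so a positive value is higher in the miR-9 line. Its p-values reflect only how far these samples spread, and that spread may be technical. Levels in each sample, their standard errors and the depth behind a gene were not analysed here, because the columns of values per library carry names that match no label. Gm25641, the gene model that covers the Mir9-1 hairpin, had a value of 4.50 (log2) in the authors' deposited table (Benjamini-Hochberg adjusted p = 8.74e-18, computed here with statsmodels). The sample names do not say at which miR-9 gene the allele lies, so this value was not taken as a check of the genotype. The mast cell label could be checked through fold changes and p-values only. The authors' deposited table gave a p-value for all 11 mast cell markers, of which 8 were positive, and their median was 0.09. They ran from -0.12 in the tryptase gene Tpsab1 to 1.60 in Tpsb2, another tryptase gene and the only marker called (adjusted p = 0.0149, statsmodels), with Kit at -0.04 and Fcer1a at 0.09, by the authors' deposited table. For the 11 neutrophil and the 10 monocyte and macrophage markers with a row, the p-value was empty in the authors' deposited table. The 7 erythroid markers had a median of 0.80 in the authors' deposited table, with none called, and 4 lymphocyte markers a median of -0.52. Of 4 basophil markers 2 were tested, and their median was 0.48 in the authors' deposited table. The part of these markers in the values given here was not tested. In bulk RNA, fewer cells of a type and less RNA per cell cannot be told apart.

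Promoters of 6 genes are printed as examples for the description by motif. Each is the RefSeq window of GRCm38.p6 from 250 bases before to 50 after the annotated start, 300 bases in all, written 5′ to 3′ on the gene's strand. Capitals mark matches, on either strand, to an NRF1 motif (GCGCANGCG), an ETS motif (CCGGAAG) or a YY1 motif (AAGATGGCG). Cycs, Atp5o and Sdhd carry the NRF1 letters, Sdhd and Atp5j the ETS letters, and Atp5j the YY1 letters. For Atp5j, which has another annotated start, the window with matches is shown. Cox5a and Cox6b2, the members with the highest and the lowest fold change, hold none of these letters in this window.
Cycs, chr6:50566520-50566819, minus strand: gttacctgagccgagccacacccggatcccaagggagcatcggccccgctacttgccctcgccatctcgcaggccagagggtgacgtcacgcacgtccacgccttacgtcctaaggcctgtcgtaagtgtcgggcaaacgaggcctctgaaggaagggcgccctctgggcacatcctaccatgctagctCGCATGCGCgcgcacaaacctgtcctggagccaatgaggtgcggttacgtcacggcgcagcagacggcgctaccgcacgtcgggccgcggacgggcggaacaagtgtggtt
Atp5o, chr16:91931581-91931880, minus strand: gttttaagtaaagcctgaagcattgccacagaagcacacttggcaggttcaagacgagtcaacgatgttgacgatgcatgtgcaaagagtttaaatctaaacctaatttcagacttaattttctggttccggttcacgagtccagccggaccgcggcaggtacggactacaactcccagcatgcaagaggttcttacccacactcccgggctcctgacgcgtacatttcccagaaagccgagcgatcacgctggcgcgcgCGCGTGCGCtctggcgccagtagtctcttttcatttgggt
Sdhd, chr9:50603800-50604099, minus strand: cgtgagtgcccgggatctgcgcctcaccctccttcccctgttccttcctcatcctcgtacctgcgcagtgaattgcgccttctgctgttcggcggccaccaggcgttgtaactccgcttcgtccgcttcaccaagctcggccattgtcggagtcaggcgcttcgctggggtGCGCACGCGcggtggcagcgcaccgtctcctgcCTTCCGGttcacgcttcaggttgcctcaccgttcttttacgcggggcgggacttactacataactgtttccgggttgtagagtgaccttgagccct
Atp5j, chr16:84834927-84835226, minus strand: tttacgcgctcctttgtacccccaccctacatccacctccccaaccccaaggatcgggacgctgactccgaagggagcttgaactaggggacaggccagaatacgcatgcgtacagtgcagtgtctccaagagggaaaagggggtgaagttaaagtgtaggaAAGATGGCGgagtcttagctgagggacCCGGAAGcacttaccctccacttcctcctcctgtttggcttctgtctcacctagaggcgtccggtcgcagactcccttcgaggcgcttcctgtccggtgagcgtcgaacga
Cox5a, chr9:57520982-57521281, plus strand: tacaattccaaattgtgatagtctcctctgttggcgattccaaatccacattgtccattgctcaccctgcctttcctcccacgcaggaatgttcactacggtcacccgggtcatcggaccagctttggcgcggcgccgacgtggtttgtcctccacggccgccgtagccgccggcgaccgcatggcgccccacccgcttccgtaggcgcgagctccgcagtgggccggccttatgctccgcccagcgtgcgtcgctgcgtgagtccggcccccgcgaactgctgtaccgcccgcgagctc
Cox6b2, chr7:4753045-4753344, minus strand: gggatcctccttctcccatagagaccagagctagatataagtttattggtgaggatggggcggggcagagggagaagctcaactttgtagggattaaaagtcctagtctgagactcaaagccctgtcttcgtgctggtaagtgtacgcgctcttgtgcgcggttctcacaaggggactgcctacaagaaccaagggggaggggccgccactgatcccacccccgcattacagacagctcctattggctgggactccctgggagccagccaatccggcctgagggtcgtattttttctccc

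Genes of the nuclear-encoded respiratory chain lay mostly above 0, by small amounts. Of the 92 with a p-value, the authors' deposited table gave 81 a positive and 11 a negative log2 fold change, and the median was 0.22. Over all 24071 rows with a p-value, 40.2% were positive in the authors' deposited table and the median was -0.09. Above that median of all rows lay 86 of the 92 members. Their values in the authors' deposited table ran from -0.59 in Cox6b2 to 0.68 in Cox5a, which is 1.60-fold. Farther than 0.5 from 0 were 6 members. Farther than 1 from 0 were 0 members, where 1045 of all 24071 rows were. The middle 50% of members spanned 0.09 to 0.33 and that of all rows -0.38 to 0.15 in the authors' deposited table, so these ranges met between 0.09 and 0.15.

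**Figure D1:**
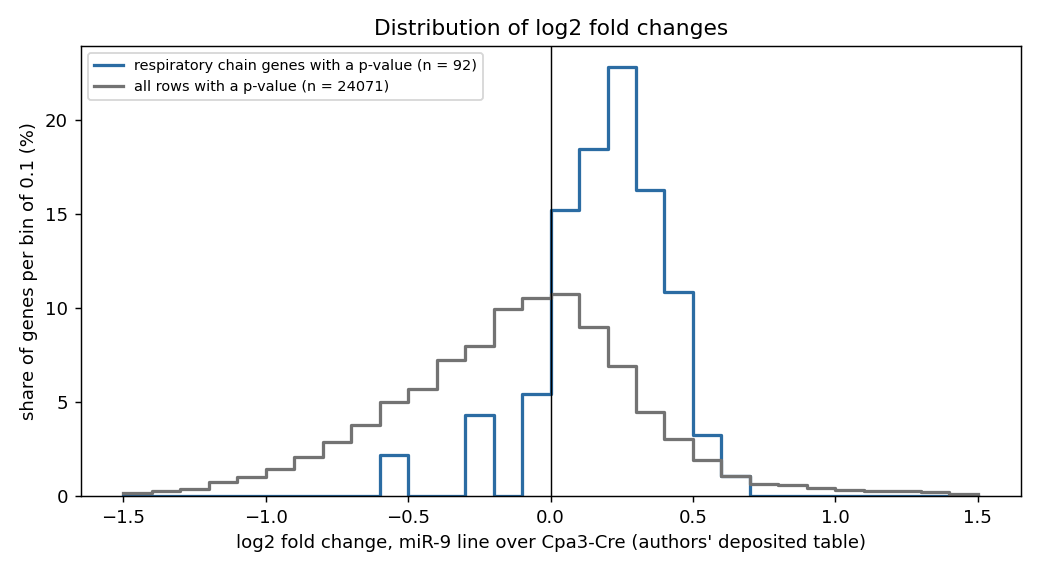
Log2 fold changes of the miR-9 line over Cpa3-Cre in the authors' deposited table (x axis), as the share of genes in each bin of 0.1 in percent (y axis), for 92 respiratory chain genes and for all 24071 rows with a p-value; values outside -1.5 to 1.5 are not drawn. The members' median of 0.22 lies to the right of that of all rows, -0.09, within the range that all rows cover.

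No single member passed the test. At a Benjamini-Hochberg adjusted p under 0.05 over the whole of the authors' deposited table (statsmodels), 0 of 92 members were called, where 0.245% of all rows were called higher and 0.166% lower. At an unadjusted p under 0.05, 0 members passed in either direction, where 3.87% of all rows did with a positive and 4.05% with a negative value in the authors' deposited table. By the authors' deposited table, 8 members had an unadjusted p under 0.10, a limit taken after the values were seen. All 8 were positive, or 8.70% of members, where 5.63% of all rows passed with a positive and 8.03% with a negative value. The smallest member p in the authors' deposited table was 0.0566, in Atp5o, with an adjusted p of 0.648 (statsmodels). No member's difference was thus shown to exceed the spread between samples. Genes measured in the same cells and libraries are not independent, so the count of positive members is not a count of separate observations.

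Complex I, the entry point for NADH electrons, had 36 subunit genes, 35 of them with a p-value. Positive values were found in 32 of the 35 in the authors' deposited table, and the median was 0.21. The 7 nuclear core subunits, which carry the flavin and iron-sulfur clusters, lay lower than the supernumerary subunits, which surround the core. Their medians in the authors' deposited table were 0.08 and 0.23, and this difference between lists was not tested. Among the core, Ndufs8 had the highest value in the authors' deposited table (0.31, p = 0.296) and the flavoprotein subunit Ndufv2 followed at 0.20. Ndufs1, the largest subunit, stood at 0.09 and Ndufv1, which holds the NADH-binding site, at 0.08 in the authors' deposited table. Ndufs7 (-0.06) and Ndufs3 (-0.07, p = 0.759) were the core subunits with negative values in the authors' deposited table. All 7 core values lay above the median of all rows.

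Of the 28 supernumerary subunits with a p-value, 27 were positive in the authors' deposited table. Ndufc2 was highest at 0.45 (p = 0.134) and Ndufb6 had the smallest p (0.44, p = 0.0828) in the authors' deposited table. The exception was Ndufb2, at -0.22 (p = 0.401) in the authors' deposited table. The exons of its row share bases with Braf, Adck2 and Gm16272, and its summed exon length was 5628 bases, so its value is uncertain where reads were shared. Ndufab1, the mitochondrial acyl carrier protein that also serves fatty acid synthesis, stood at 0.0015 in the authors' deposited table. Ndufa9 was listed at 0.22 in the authors' deposited table without a p-value, and stayed out of all counts over tested members. The 7 complex I assembly factors with a row, which help build the complex and are not part of it, had a median of 0.11 in the authors' deposited table, from -0.0019 in Ndufaf7 to 0.42 in Ndufaf2.

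Complex II, the succinate dehydrogenase shared with the tricarboxylic acid cycle, was positive in 4 of 4 genes in the authors' deposited table. Sdhd (0.31, p = 0.265) and Sdhc (0.24), its membrane anchors, lay above Sdhb (0.23), the iron-sulfur subunit, and Sdha (0.09, p = 0.721), the flavoprotein, in the authors' deposited table. Complex III was positive in 8 of 9 genes, with a median of 0.28 in the authors' deposited table. Its electron-carrying subunits Cyc1, for cytochrome c1, and Uqcrfs1, for the Rieske iron-sulfur protein, stood at 0.28 and 0.30 in the authors' deposited table. The core proteins Uqcrc1 (0.16) and Uqcrc2 (0.17) were lower in the authors' deposited table than the small subunit Uqcr10 (0.41, p = 0.110), the highest of the complex. Uqcrh, the hinge protein, was the lowest at -0.02 (p = 0.949) in the authors' deposited table. Cycs, the somatic cytochrome c gene whose promoter is printed above, had a value of 0.36 (1.28-fold, p = 0.117) in the authors' deposited table.

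**Figure D2:**
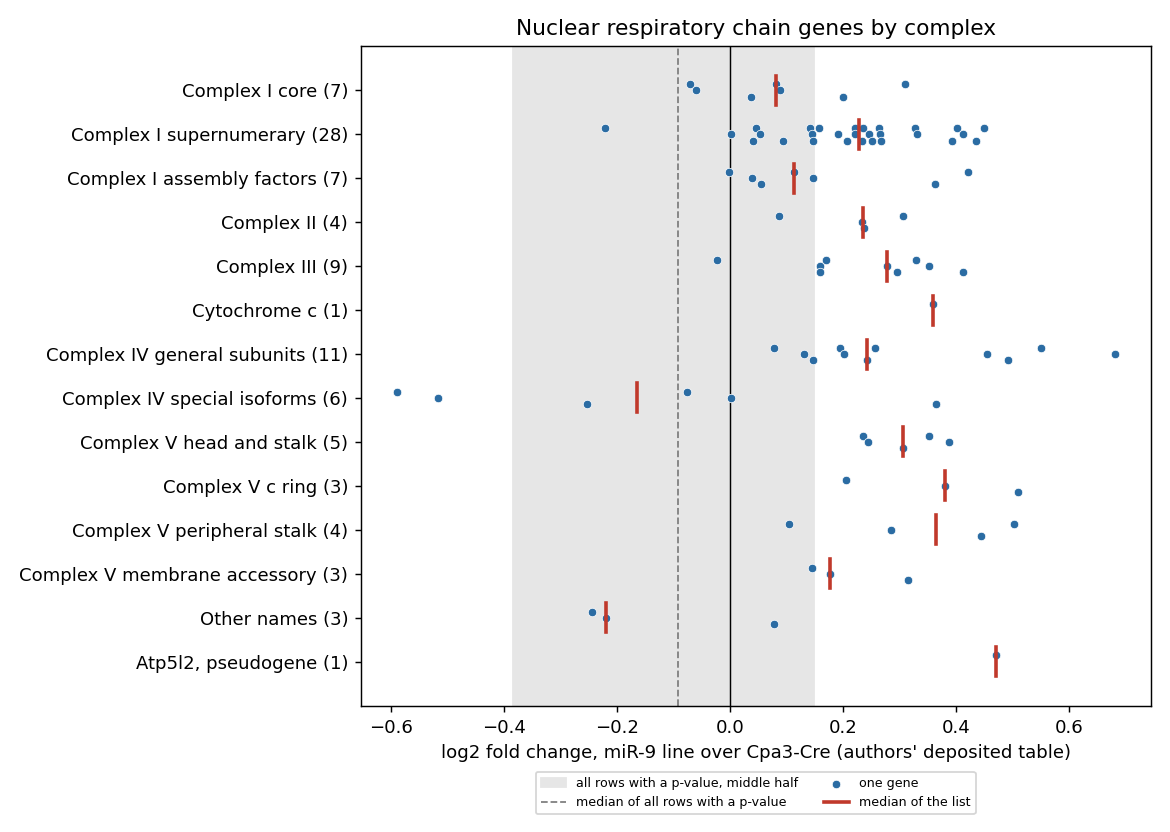
Log2 fold changes of the miR-9 line over Cpa3-Cre in the authors' deposited table (x axis) for each respiratory chain gene with a p-value, by list (y axis, number of genes in brackets). Points are genes, red bars list medians, the grey band the middle 50% of all rows and the dashed line their median of -0.09; all 15 complex V genes lie right of 0, and 4 of the 6 special isoforms of complex IV lie left of it.

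Complex IV, cytochrome c oxidase, was positive in all 11 of its general subunits in the authors' deposited table, and the median was 0.24. This list counts Ndufa4, once assigned to complex I, as a subunit of complex IV. Cox5a, a subunit that faces the matrix, was the highest of all members (0.68, 1.60-fold, p = 0.0807, adjusted p = 0.708 by statsmodels) in the authors' deposited table. Ndufa4 followed at 0.55 (p = 0.0662) and Cox5b, the zinc-binding subunit, at 0.49 (p = 0.0902) in the authors' deposited table. Cox4i1, the general form of the largest nuclear-encoded subunit, stood at 0.15 (p = 0.632) and Cox6c was lowest at 0.08 in the authors' deposited table. The row of Cox5a, on chromosome 9 from 57521232 to 57532424 on the plus strand (GRCm38), shares 267 exon bases with Gm26631 on the other strand. Gm26631 stood at -0.23 in the authors' deposited table. Although the libraries were strand-specific, the sources used here do not state whether counting used strand.

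Special isoforms of complex IV were positive in 2 of 6 cases, or 33.3%, near the 40.2% of all rows in the authors' deposited table, and 3 of the 6 lay above the median of all rows. These genes replace the general subunit in particular tissues or states, such as the heart and skeletal muscle forms Cox6a2, Cox7a1 and Cox8b, the lung form Cox4i2, the testis form Cox6b2, and Ndufa4l2, a paralog of Ndufa4 known to be induced by hypoxia. Their median was -0.16 in the authors' deposited table, and none had a p under 0.05. In 5 of 6 pairs the isoform lay below its general form, and the difference within pairs was not tested. Ndufa4l2 stood at -0.52 (p = 0.329) where Ndufa4 stood at 0.55 (p = 0.0662) in the authors' deposited table. Cox6b2 stood at -0.59 (p = 0.236) beside 0.20 in Cox6b1 in the authors' deposited table. Cox4i2 was at -0.25 beside 0.15 in Cox4i1, and Cox7a1 at -0.07 beside 0.13 in Cox7a2, in the authors' deposited table. Cox6a2 (0.0015, p = 0.998) also lay below Cox6a1 (0.24) in the authors' deposited table. Cox8b was the reverse, with 0.36 (p = 0.493) against 0.19 in Cox8a in the authors' deposited table. The levels behind these rows were not analysed here, so a scarce isoform is not told apart from an abundant isoform.

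**Figure D3:**
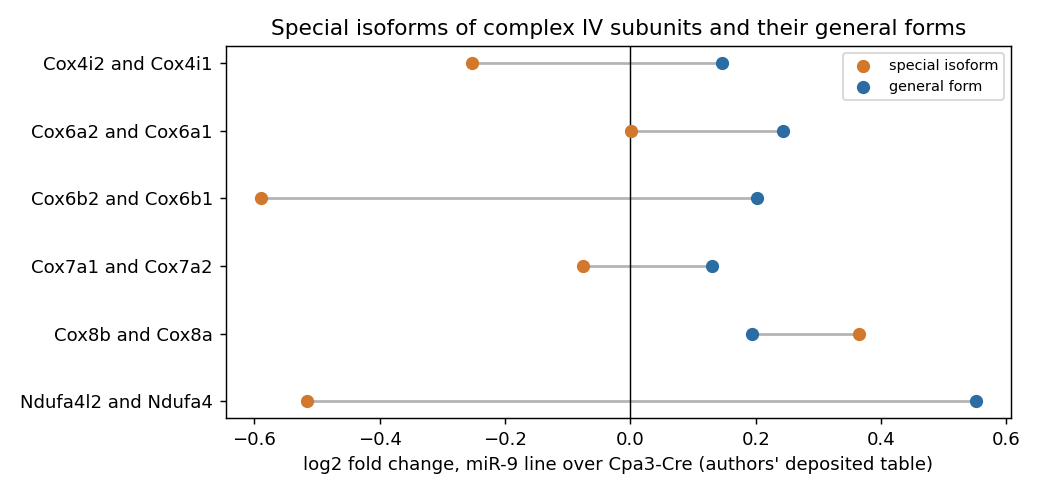
Log2 fold changes of the miR-9 line over Cpa3-Cre in the authors' deposited table (x axis) for 6 special isoforms (orange) and their general forms (blue), joined by lines, a pair in each row. In 5 of 6 pairs the isoform lies to the left, and Ndufa4l2 (-0.52) and Ndufa4 (0.55) are farthest apart.

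Complex V, the ATP synthase, was positive in 15 of 15 subunit genes in the authors' deposited table, and the median was 0.31, with a range from 0.10 in Atp5h to 0.51 in Atp5g3. In the catalytic head and central stalk, Atp5d (0.39, p = 0.0960) and Atp5b, the catalytic beta subunit (0.35, p = 0.208), had the highest values in the authors' deposited table. Atp5a1, the alpha subunit, stood at 0.24 and Atp5c1, the gamma subunit of the rotating stalk, at 0.24 in the authors' deposited table. The 3 genes of the c ring, which encode the same mature protein, stood at 0.51 in Atp5g3 (p = 0.0884), 0.38 in Atp5g2 and 0.21 in Atp5g1 in the authors' deposited table. In the peripheral stalk, Atp5o, the subunit that confers oligomycin sensitivity, stood at 0.50 (1.42-fold, p = 0.0566) and Atp5f1 at 0.45 (p = 0.0914) in the authors' deposited table. The gene model of Atp5o in the authors' deposited table spans 247290 bases of chromosome 16, from 91684398 to 91931687 on the minus strand, and shares 287 exon bases with Donson on the same strand. Reads from the shared bases cannot be assigned to either gene here. Among the membrane accessory subunits, Atp5k was highest (0.32) and Atp5j2 lowest (0.15) in the authors' deposited table.

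Members outside the structural subunits gave a different balance. The 75 structural subunits and cytochrome c with a p-value were positive in 71 cases, with a median of 0.24 in the authors' deposited table. The other 17 members were positive in 10 cases, with a median of 0.04 in the authors' deposited table. They included Cox7a2l (-0.22, p = 0.565) and Atp5sl (-0.24, p = 0.263), by the authors' deposited table. Cox7a2l is known for joining complexes III and IV into supercomplexes, a role not examined in these cells. Atp5sl is a complex I assembly factor that GENCODE M21 names Dmac2. Atp5s, a regulatory factor of the ATP synthase, stood at 0.08 in the authors' deposited table. Atp5l2 (0.47, p = 0.123) met the name rule in the authors' deposited table, but GENCODE M21 classes this single-exon row of 312 bases as a processed pseudogene. Its name ties it to Atp5l, which stood at 0.18 in the authors' deposited table, and how counting treated reads that fit both is not stated.

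Members with a short summed exon length lay higher than those with a long one. This length is that of the gene model and is not a transcript length. The 21 members whose exons summed to under 700 bases had a median of 0.36 in the authors' deposited table, while the median of the remaining 71 was 0.19. Protein-coding rows as a whole differed the same way by less, with medians of 0.02 in 349 rows under 700 bases and -0.09 in 15846 longer rows in the authors' deposited table. Across the 92 members, which share libraries, Spearman's correlation of exon length with log2 fold change was -0.22, against -0.04 across 16195 protein-coding rows. The part of length in the members' values was not tested. Of the 71 longer members, 61 were positive in the authors' deposited table.

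Other mitochondrial genes differed by list. The 13 mitochondrially encoded mRNAs, which encode the partner subunits, had a median of 0.51, with 11 positive and none called, in the authors' deposited table. Among them the 7 complex I subunits had a median of 0.82 in the authors' deposited table, led by mt-Nd6 (1.06, p = 0.0221) and with mt-Nd3 lowest at -0.06. The 3 complex IV subunits had a median of 0.03 in the authors' deposited table. For complex I the mitochondrial mRNAs thus lay above the nuclear subunits (0.82 and 0.21), and for complex IV below them (0.03 and 0.24), as medians from the authors' deposited table without a test. Tricarboxylic acid cycle genes, which supply the electrons, were positive in 12 of 12 with a p-value, with a median of 0.21 in the authors' deposited table. Idh3a, of the NAD-dependent isocitrate dehydrogenase, had the highest value (0.57, p = 0.00582, adjusted p = 0.261 by statsmodels) and Dld the lowest (0.07) in the authors' deposited table.

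Assembly factors outside the name prefixes were positive in 18 of 31, with a median of 0.04 and none called in the authors' deposited table. They ran from -0.47 in Nubpl, which delivers iron-sulfur clusters to complex I, to 0.44 in Lyrm7, a chaperone of the Rieske protein, in the authors' deposited table. Coenzyme Q synthesis, which makes the mobile carrier between complexes I or II and III, was positive in 7 of 13 with a median of 0.02 in the authors' deposited table. Its lowest and highest genes were Adck3 (-0.68, p = 0.0276, adjusted p = 0.520 by statsmodels) and Coq7 (0.44) in the authors' deposited table. Regulators of mitochondrial biogenesis and mitochondrial transcription were positive in 8 of 16 with a median of -0.01 in the authors' deposited table. Ppargc1a, the coactivator known as a driver of mitochondrial biogenesis, was the lowest of them (-1.32, a signed fold of -2.49, p = 0.00708), without passing over all rows (adjusted p = 0.288, statsmodels), in the authors' deposited table. Its relative Pprc1 was the highest at 0.45 (p = 0.130) in the authors' deposited table. Nrf1 stood at 0.14, Gabpa, the DNA-binding subunit of GABP, at -0.12, Yy1 at 0.14 and Tfam, which packages mitochondrial DNA and activates its transcription, at 0.09 in the authors' deposited table, each with p above that of Ppargc1a.

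**Figure D4:**
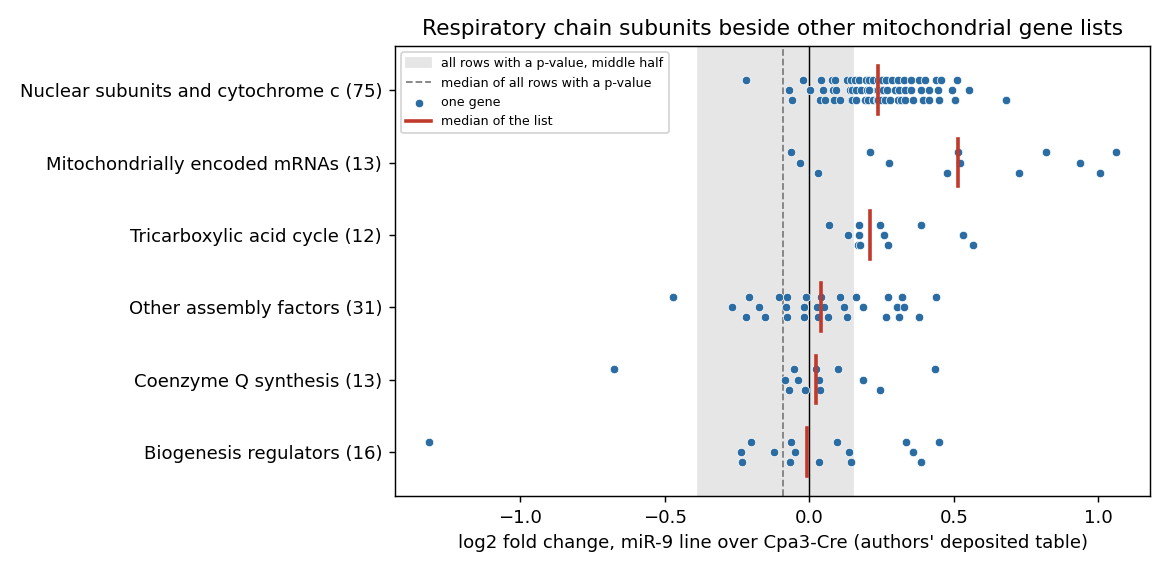
Log2 fold changes of the miR-9 line over Cpa3-Cre in the authors' deposited table (x axis) for the nuclear subunits with cytochrome c and for 5 other mitochondrial gene lists (y axis, number of genes with a p-value in brackets). Points are genes, red bars list medians, the grey band the middle 50% of all rows and the dashed line their median; medians are 0.24 for the subunits, 0.51 for mitochondrial mRNAs and -0.01 for regulators, where Ppargc1a is the point at -1.32.

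Promoter letters were counted in the 76 members with a RefSeq promoter, 3 of them matched through an older symbol. The NRF1 motif was present in 23 of 76 members, or 30.3%, against 7.03% of all 27025 genes with a RefSeq promoter and 12.4% of the 12075 protein-coding genes among them that the authors' deposited table gave a p-value. The ETS motif was present in 22.4% of members, against 9.93% of all genes and 16.1% of those protein-coding genes. The YY1 motif was present in 10.5% of members, against 1.64% of all genes and 2.77% of the protein-coding genes. The letters TATAAA, the core of a TATA box, were present in 7.89% of members (6 of 76), 15.7% of all genes and 10.9% of the protein-coding genes. Both strands were searched, and matches of different motifs overlapped in 0 of the members' promoters. All 23 members with the NRF1 letters, Cycs, Atp5o and Sdhd among them, were positive in the authors' deposited table, and the median was 0.27. The 52 tested members without them were positive in 43 cases, with a median of 0.20 in the authors' deposited table. Negative among these 52 were Cox6b2, Cox7a1, Cox7a2l, Atp5sl and Ndufaf7, all outside the structural subunits. The subunits Ndufs3, Ndufs7, Ndufb2 and Uqcrh were negative too. Motif and list are thus not separated in this comparison. For the ETS motif the medians were 0.24 with and 0.22 without it, and for YY1 0.15 with and 0.24 without it, in the authors' deposited table. These differences were not tested, and a match to these letters is not a bound site.

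Many members sit head to head with another gene. Where the 5′ ends do not overlap, the neighbours mostly lay below their members and, as a group, near all rows. A row on the opposite strand with its 5′ end within 1000 bases was found for 34 members. In the 24 pairs whose 5′ ends do not overlap, 22 members but 10 neighbours were positive in the authors' deposited table. The medians of those members and neighbours were 0.25 and -0.06, and the member lay above its neighbour in 21 of the 24, by the authors' deposited table. Over all rows with a p-value, 40.2% were positive and the median was -0.09, so these neighbours lay near all rows. Ndufa5 stood at 0.40 beside -0.82 in Asb15 (p = 0.128), 131 bases away, in the authors' deposited table. Cycs stood at 0.36 beside -0.74 in the antisense transcript 5430402O13Rik (p = 0.142) in the authors' deposited table. The levels behind these neighbours were not analysed here, so a scarce row is not told apart from an abundant row. Values lay closer in other pairs, such as Sdhd (0.31) and Timm8b, of the mitochondrial import system (0.22), whose 5′ ends are 52 bases apart, by the authors' deposited table. The ribosomal protein gene Rps28, 29 bases from Ndufa7 (0.05), stood at -0.12 in the authors' deposited table. In the 10 pairs with overlapping 5′ ends, 8 members and 8 neighbours were positive, with medians of 0.19 and 0.14, in the authors' deposited table. There the member lay above its neighbour in 5 pairs and below it in 5. Atp5j (0.29) belongs to these and overlaps Gabpa (-0.12), itself a regulator of respiratory genes, by 397 exon bases in the authors' deposited table. None of the 34 neighbours had a p under 0.05, where 3.87% of all rows did with a positive and 4.05% with a negative value in the authors' deposited table. The differences within pairs were not tested.

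**Figure D5:**
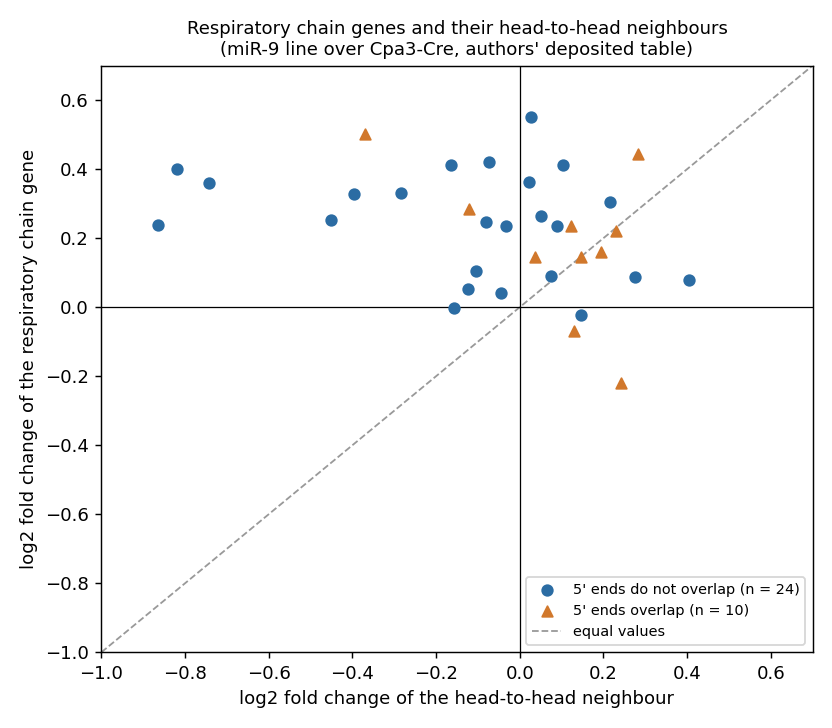
Log2 fold changes of the miR-9 line over Cpa3-Cre in the authors' deposited table for 34 respiratory chain genes (y axis) and their head-to-head neighbours (x axis). Circles are 24 pairs whose 5′ ends do not overlap and triangles 10 pairs that overlap; points above the dashed line of equal values, 21 of the 24 circles, have the member higher than its neighbour.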

How the data were processed

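The authors deposited a single table of 25549 gene rows. Per the file headers, its measures are the log2 fold change between the genotypes (the miR-9 line over Cpa3-Cre), the same fold as a signed linear score, and a p-value, which is missing in 1478 rows. It also holds the summed exon length of each gene model. The tools HTSeq, STAR, DESeq, DESeq2 and Cuffdiff and the builds mm10 and GRCm38 are listed, with neither version nor role, per the submitters' processing notes. Per the labels' design text, the authors used DESeq2 and one-way ANOVA, and a p-value limit of 0.0001. The model, the filters, the use of strand and any shrinkage of the folds, which would make small or variable folds smaller, are not stated in the sources used here.

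The table has 5 further columns of values per library. Their names match no label, so they were not used in any step, and no test of expression, replicate spread, level or depth was computed here. For that reason the fits planned for values per library gave way to the authors' comparison. Benjamini-Hochberg adjustment ran over all 24071 rows with a p-value (statsmodels 0.14.6, Python 3.11.15, numpy 2.4.6, pandas 2.3.3), and rows with an adjusted p under 0.05 were called. The adjustment was checked on simulated data.

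Members and lists were chosen with earlier results of these data known. Named genes were the highest and lowest of each list, the nuclear core of complex I, all of complex II, Cyc1, Uqcrc1, Uqcrc2, Uqcrfs1, Cycs, Cox4i1, Cox5a, Cox5b, Atp5a1, Atp5b, Atp5c1, all special isoforms, and members with p under 0.05, of which there were 0. Some genes that this rule names are not reported here. Further genes are named as examples chosen after their values were seen. Symbols were matched to GENCODE M21 (GRCm38) by name and position, and 55 of 93 members had the same start and end there. Promoters came from RefSeq (GRCm38.p6). Figures were drawn with matplotlib 3.10.9.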

Additional observations from a re-analysis of the deposited data

How the results depend on the processing

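The count of 0 called members held at an adjusted p under 0.10, at the unadjusted 0.0001 of the design text, with missing p-values counted as 1, with unique symbols only and with Benjamini-Yekutieli adjustment, where 233, 72, 95, 99 and 24 of all rows were called, in that order. The 0.0001 limit, missing p-values counted as 1 and the Benjamini-Yekutieli adjustment are stricter than an adjusted p under 0.05. They could not have added a member, so they do not test the count. Structural subunits and unique symbols also gave 0 members at an unadjusted p under 0.05. That was fixed beforehand, because the subunits are a part of the members and 0 members share a symbol. The members' median log2 fold change of 0.22 was 0.24 in structural subunits only, 0.31 after subtracting the median of all rows, 0.21 in members with at least 500 exon bases, and 0.23 without the 19 members that share exon bases with another row. This last alternative was chosen after seeing the data. Under these 4 alternatives the positive share was 94.7%, 93.5%, 88.4% and 89.0%, in that order, against 88.0% over all members. No paired analysis was possible because the columns of values per library carry no sample name or replicate number of the labels. Leaving out each replicate, the replicate block, another scaling and a filter on low values were not run, because those columns, which match no label, were not used. Depth behind each gene was not analysed here, so a small difference that is not detectable at this depth is not told apart from none.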

Other observations

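Atp5l-ps1, the 1 row that met the name prefixes and was left out for its -ps ending, had the value 0.16 (p = 0.761) in the authors' deposited table. The 3 X-linked members, Cox7b (0.45), Ndufa1 (0.41) and Ndufb11 (0.15), were positive in the authors' deposited table. Ndufa4l2 shares 30 exon bases with Shmt2, the mitochondrial serine hydroxymethyltransferase gene, on the opposite strand. By the authors' deposited table Shmt2 had the value 0.53 (p = 0.0409), opposite in sign to Ndufa4l2 (-0.52). Ogdh, of the tricarboxylic acid cycle, was listed at 0.19 in the authors' deposited table without a p-value.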
